A study of Homo sapiens with 9 samples.

Results

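The genes described here are 42 genes of the endoplasmic reticulum (ER) that fold, process and export secreted proteins, and the sensors that adjust them, out of 38478 gene rows in the table. They were chosen by name for their function, with no measured value in the rule, though earlier results of these data were known. All 42 were found in the table and passed the filter on low counts. By role they are 11 chaperones and co-factors, 7 enzymes of disulfide bond formation, 10 subunits of the translocon and its partner complexes, 9 factors of ER-associated degradation, 4 stress sensors, and MZB1, a plasma cell helper of immunoglobulin folding. OPM-1, a human cell line established from a plasma cell myeloma, was sequenced in 3 groups of 3 libraries each, from RNA with poly(A) tails and with the strand kept. One group carried guides against both FBXW7 and KMT2D (gFBXW7 + gKMT2D in the labels, gFBXW7_gKMT2D here), one a guide against FBXW7 (gFBXW7), and the control a guide against luciferase (gLuc), which is not a human gene. The labels give a wild-type genotype and culture in RPMI with serum for all 9 libraries, and state no other treatment. They describe stable expression of the RNAs and independent biological replicates, without naming the mechanism of these RNAs or whether the lines are clones. The series asks what losing FBXW7, alone or with KMT2D, does to messenger RNA.

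A plasma cell makes antibody at a very high rate, and its ER is built for this load. Nascent chains enter through the SEC61 channel, lose their signal peptide, are bound by chaperones such as HSPA5 (BiP) and are joined by disulfide bonds, and chains that fail to fold are sent back to the cytosol for destruction. When unfolded chains accumulate, the sensors ERN1 (IRE1), EIF2AK3 (PERK) and ATF6 start the unfolded protein response, in which spliced XBP1 and cleaved ATF6 act at ER stress elements in the promoters of chaperone genes. FBXW7 is the part of an SCF ubiquitin ligase that binds its substrates, and KMT2D is a histone H3 lysine 4 methyltransferase.

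Both targeted transcripts were present in every library. FBXW7 (chromosome 4, 152320544 to 152536063) had TMM-scaled CPM of 46.0, 45.2 and 71.7 in gFBXW7_gKMT2D, of 53.4, 55.5 and 54.8 in gFBXW7 and of 53.8, 47.9 and 48.7 in gLuc. KMT2D (chromosome 12, 49018975 to 49059774) had 48.0, 107 and 28.6 CPM in gFBXW7_gKMT2D, 48.8, 65.1 and 59.1 CPM in gFBXW7, and 41.0, 58.3 and 104 CPM for gLuc. The groups overlapped for both genes and neither passed the test in any comparison, so their transcript levels do not check the labels. Total counts ran between 16337492 and 27076242. All 8 plasma cell markers were above 1 CPM on average, with summed levels of 10416 to 16319 CPM in gFBXW7_gKMT2D, 13085 to 14134 CPM in gFBXW7 and 12205 to 14581 CPM in gLuc. Of 21 markers of other cell types, 5 were at 0 in all libraries and only HBB passed 1 CPM on average. Summed over the 21, they reached 24.4 to 44.9 CPM in gFBXW7_gKMT2D, 34.7 to 44.5 CPM in gFBXW7 and 22.4 to 41.1 CPM in gLuc. The libraries differed in other ways that touch the results. Ribosomal protein genes took 8.07%, 5.46% and 11.2% of counts in gFBXW7_gKMT2D replicates 1, 2 and 3, 8.56%, 7.47% and 6.80% in gFBXW7, and 8.24%, 6.16% and 5.03% in gLuc. Messages of mitochondrial DNA took 3.63%, 3.67% and 2.04% in gFBXW7_gKMT2D, 0.638%, 1.52% and 1.54% in gFBXW7, and 1.64%, 3.02% and 3.33% in gLuc.

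Many of these genes are known to be switched on through ER stress elements, so their promoters were searched for them. RefSeq start regions (GRCh38.p14, 250 bases before to 50 after each start) were found for 38 of the 42 genes, as 48 start regions in all, with none for PDIA3, SPCS1, DERL1 and DERL3. Each was searched on both strands for the ER stress element ERSE, which is CCAAT and CCACG with 9 bases of any kind between them, and for the shorter ERSE-II, which is ATTGG and CCACG with 1 base of any kind between them. An ERSE stood in 9 of the 48 start regions (18.8%), against 27 of all 35116 (0.0769%). An ERSE-II stood in 3 of 48 (6.25%), against 19 of 35116 (0.0541%). By gene, 10 of 38 (26.3%) held one or the other, against 44 of 27305 genes (0.161%). The 42 genes were chosen for roles that include the stress response, so these higher shares follow in part from that choice. They are not a result of the RNA values. The matches are printed here because the comparisons return to these 10 genes. Each is written in the direction of the motif, with the fixed letters in capitals and the free spacer in lower case, and the strand named is the one printed.
HSPA5, ERSE, chr9:125241391-125241409 on the minus strand: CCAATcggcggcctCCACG
HSP90B1, ERSE, chr12:103930216-103930234 on the plus strand: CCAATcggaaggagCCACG
HSP90B1, ERSE, chr12:103930321-103930339 on the minus strand: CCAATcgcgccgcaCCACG
CALR, ERSE, chr19:12938384-12938402 on the minus strand: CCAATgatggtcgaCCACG
CANX, ERSE, chr5:179698778-179698796 on the plus strand: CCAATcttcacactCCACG
CRELD2, ERSE, chr22:49918554-49918572 on the minus strand: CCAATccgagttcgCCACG
PDIA6, ERSE, chr2:10812853-10812871 on the minus strand: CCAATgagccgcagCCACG
ERO1B, ERSE, chr1:236282183-236282201 on the plus strand: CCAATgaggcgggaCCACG
HYOU1, ERSE-II, chr11:119057380-119057390 on the plus strand: ATTGGaCCACG
HYOU1, ERSE-II, chr11:119057274-119057284 on the plus strand: ATTGGaCCACG
SDF2L1, ERSE-II, chr22:21642114-21642124 on the minus strand: ATTGGtCCACG
HERPUD1, ERSE-II, chr16:56932025-56932035 on the plus strand: ATTGGgCCACG
HSP90B1 and HYOU1 each held a pair of matches, and the 2 ERSE-II of HYOU1 had the same 11 letters. The 3 start regions of CANX in which a match was found overlap and share 1 ERSE. The whole 250 bases before the start are printed for HSPA5, HSP90B1 and HYOU1, to show how the elements lie in them. They run along the gene's own strand toward the start, with ERSE and ERSE-II matches in capitals on whichever strand they were found.
HSPA5, chr9:125241344-125241593, minus strand: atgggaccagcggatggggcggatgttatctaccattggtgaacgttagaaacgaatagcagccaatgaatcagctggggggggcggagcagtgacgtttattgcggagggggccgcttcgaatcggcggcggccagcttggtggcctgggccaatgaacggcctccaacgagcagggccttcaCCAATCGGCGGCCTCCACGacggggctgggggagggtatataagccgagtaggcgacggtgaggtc
HSP90B1, chr12:103930160-103930409, plus strand: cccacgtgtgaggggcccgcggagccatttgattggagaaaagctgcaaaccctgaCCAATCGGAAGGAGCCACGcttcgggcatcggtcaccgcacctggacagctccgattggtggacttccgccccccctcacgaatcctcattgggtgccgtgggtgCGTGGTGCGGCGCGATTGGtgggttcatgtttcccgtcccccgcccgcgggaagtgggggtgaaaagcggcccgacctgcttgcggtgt
HYOU1, chr11:119057206-119057455, minus strand: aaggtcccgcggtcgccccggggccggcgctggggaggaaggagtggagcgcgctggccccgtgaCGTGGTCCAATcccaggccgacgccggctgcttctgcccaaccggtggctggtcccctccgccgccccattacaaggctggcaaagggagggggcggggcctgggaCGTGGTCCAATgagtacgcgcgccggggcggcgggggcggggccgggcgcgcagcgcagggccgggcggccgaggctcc
In HSPA5 the matched element began 66 bases before the start, in HSP90B1 the elements began 194 and 89 bases before it, and in HYOU1 185 and 79 bases before it. The core of the XBP1-type element, TGACGTG, stood in 4 of 48 start regions (8.33%), those of HYOU1, SEC61A1, SSR3 and SSR4, against 1.97% of all. In HYOU1 it overlaps the ERSE-II that lies farther from the start. The shorter motifs within these elements were common everywhere, CCAAT in 79.2% of the 48 start regions against 34.6% of all and CCACG in 72.9% against 38.1%, and both are contained in the full elements. A match describes letters only, and the missing matches in the other genes say nothing on how those genes are controlled.

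The 42 genes together took 1.505%, 1.46% and 1.41% of all counts in gFBXW7_gKMT2D replicates 1, 2 and 3, 1.63%, 1.64% and 1.60% in gFBXW7, and 1.61%, 1.54% and 1.49% in gLuc. Levels between genes are compared per kilobase, as the deposited RPKM, which rests on the gene lengths in the table, whose basis the headers do not state. A channel subunit and some of the chaperones stood at the top, and lower down the roles were mixed. SEC61G, a small subunit of the translocation channel, was the most abundant, with 1272 ± 608 RPKM in gFBXW7_gKMT2D, 1227 ± 103 RPKM in gFBXW7 and 1062 ± 353 RPKM in gLuc (SD, n = 3 each). CALR, the lectin chaperone calreticulin, came next with 742 ± 67.2 RPKM in gFBXW7_gKMT2D, 895 ± 102 RPKM in gFBXW7 and 768 ± 153 RPKM in gLuc. HSP90B1 (GRP94), the ER member of the HSP90 family, averaged 654 ± 131 RPKM in gFBXW7_gKMT2D, 725 ± 71.6 RPKM in gFBXW7 and 667 ± 94.6 RPKM in gLuc. These 3 genes, with SSR2, SEC61B, MZB1 and P4HB, stood above HSPA5, which ranked 8 with 237 ± 7.66 RPKM in gFBXW7_gKMT2D, 282 ± 23.1 RPKM in gFBXW7 and 256 ± 23.8 RPKM in gLuc. MZB1, which helps HSPA5 and HSP90B1 fold antibody chains in B-lineage cells, ranked 6 with 389 ± 94.3 RPKM in gFBXW7_gKMT2D, 414 ± 25.4 RPKM in gFBXW7 and 358 ± 80.0 RPKM in gLuc. Ranks go by the mean over all libraries. Neighbours in rank from SEC61G down to HSPA5 overlapped in their libraries, so their order is not firm.

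The 4 sensors lay far lower per kilobase, at ranks 32 (EIF2AK3), 36 (ATF6), 39 (CREB3L2) and 41 (ERN1), among genes of other roles such as DNAJC3, EDEM2 and DERL2. These ranks depend on the deposited lengths, which are long for the sensors. Without division by length, their median CPM over all libraries were 99.6, 113, 112 and 67.5 in the same order. HSPA5 had 1019, DNAJB9 72.1 and DERL2 51.3. ERN1, whose RNase splices XBP1, had 6.52 ± 2.70 RPKM in gFBXW7_gKMT2D, 7.21 ± 0.133 RPKM in gFBXW7 and 7.38 ± 1.58 RPKM in gLuc. EIF2AK3, the kinase that phosphorylates eIF2, had 16.8 ± 6.04 RPKM in gFBXW7_gKMT2D, 19.0 ± 1.91 RPKM in gFBXW7 and 20.6 ± 2.94 RPKM in gLuc. Only ERO1B, an oxidase that recharges protein disulfide isomerases, was lower than ERN1, with 0.603 ± 0.109 RPKM in gFBXW7_gKMT2D, 0.655 ± 0.0591 RPKM in gFBXW7 and 0.663 ± 0.193 RPKM in gLuc, from 47 to 112 reads a library. Complexes with fixed partners were not level with each other. Of the channel subunits, SEC61A1, which forms the pore, ranked 11 while SEC61G and SEC61B ranked 1 and 5, and of the TRAP subunits SSR2, SSR4, SSR3 and SSR1 ranked 4, 14, 20 and 25. Of the degradation factors HERPUD1, a scaffold of the ubiquitin ligase complex, was the most abundant with 118 ± 8.50 RPKM in gFBXW7_gKMT2D, 128 ± 4.67 RPKM in gFBXW7 and 122.9 ± 3.44 RPKM in gLuc. DERL3, a derlin known from secretory cells, had 13.1 ± 1.28 RPKM in gFBXW7_gKMT2D, 14.5 ± 0.171 RPKM in gFBXW7 and 14.05 ± 1.54 RPKM in gLuc. Its deposited length of 7517 bases is longer than the 4626 bases its coordinates span, the only such case of the 42, so its RPKM and its rank may be too low.

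**Figure D1:**
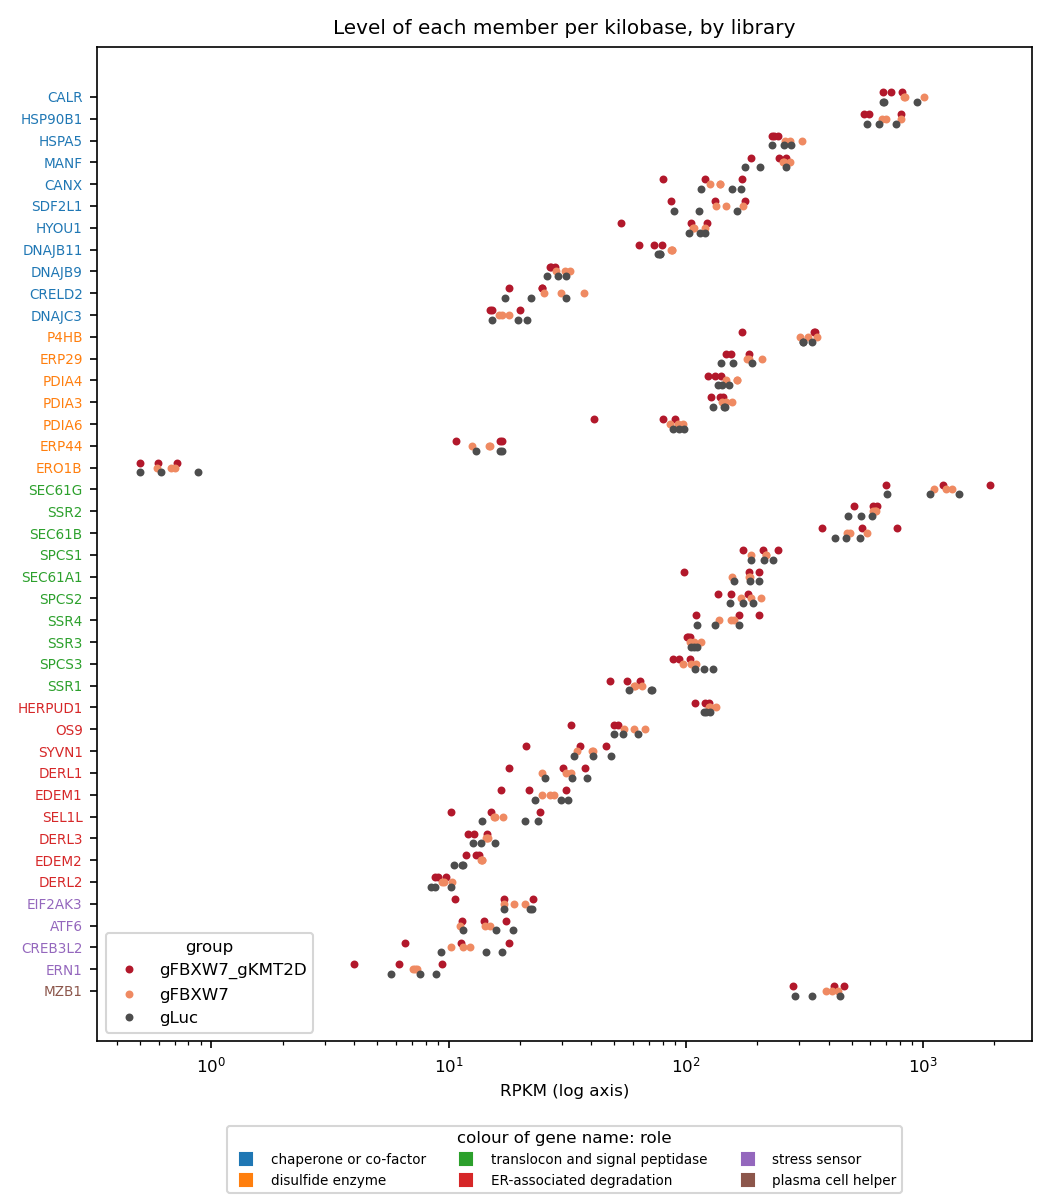
Deposited RPKM (log axis) of the 42 genes, 1 row per gene, grouped by role and ordered by level within a role. Each row holds 9 points, 1 per library, coloured by group. The sensors lie toward the lower left and SEC61G lies farthest right at about mid-height, ERO1B lies below 1 RPKM, and the gFBXW7_gKMT2D points are often the most spread.

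The first comparison, gFBXW7_gKMT2D against gFBXW7, asks what the KMT2D guide adds to the FBXW7 guide. None of the 42 genes passed the test (edgeR's quasi-likelihood test, Benjamini-Hochberg adjustment over all 13262 genes tested, threshold 0.05), where 8 genes in all did (0.0603%), and the DESeq2 Wald test and limma also called none of the 42. The fitted values leaned one way: 33 of the 42 were below 0 and 9 above, with a median log2 fold change of -0.11, where 45.4% of all genes were below 0 and their median was 0.02. At an unadjusted p under 0.05 there was 1 of the 42, OS9, against 4.22% of all genes. Below 0 were 10 of 11 chaperones (median -0.13), 6 of 7 disulfide enzymes (-0.18), MZB1 and 8 of 9 degradation factors (-0.08), while 6 of 10 genes of the translocon group (-0.04) and 2 of 4 sensors (-0.05) were below 0. In bulk RNA, fewer cells that express a gene and less of its RNA per cell cannot be told apart.

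OS9, a lectin that hands misfolded glycoproteins to the degradation complex (chromosome 12, 57693955 to 57721557), had 148, 131 and 110 CPM in gFBXW7_gKMT2D, against 178, 192 and 154 CPM in gFBXW7. Every gFBXW7_gKMT2D library was below every gFBXW7 library. Its log2 fold change was -0.43 (SE 0.17, 95% interval -0.81 to -0.052, unadjusted p = 0.0297, edgeR adjusted p = 0.99998). DNAJB11, a co-chaperone of HSPA5 (chromosome 3, 186567403 to 186585800), had 134, 114 and 126 CPM in gFBXW7_gKMT2D, against 152, 148 and 143 CPM in gFBXW7, again without overlap. Its log2 fold change was -0.24 (SE 0.11, edgeR adjusted p = 0.99998). PDIA6, a disulfide isomerase that works beside HSPA5 (chromosome 2, 10783391 to 10837977), had 279, 287 and 168 CPM in gFBXW7_gKMT2D, against 350, 322 and 291 CPM in gFBXW7. The groups did not overlap, though gFBXW7_gKMT2D replicate 3 lay well below the other two, and the log2 fold change was -0.39 (SE 0.20), or -0.18 without that library. PDIA4 was at -0.23 (SE 0.14), with 416, 363 and 432 CPM in gFBXW7_gKMT2D against 451, 489 and 476 CPM in gFBXW7. In all, 5 of the 42 genes had every gFBXW7_gKMT2D library below every gFBXW7 library (OS9, DNAJB11, PDIA6, PDIA4 and SSR1), and 0 had them all above, where 5.2% and 4.35% of all genes did. CRELD2, an ER stress-induced secreted factor, was at -0.40 (SE 0.29), or -0.20 without gFBXW7_gKMT2D replicate 2 and -0.22 without gFBXW7 replicate 1, and HYOU1, the nucleotide exchange factor of HSPA5, at -0.26 (SE 0.21). HYOU1 had 505, 546 and 301 CPM in gFBXW7_gKMT2D, against 531, 583 and 509 CPM in gFBXW7, and its value was -0.035 without gFBXW7_gKMT2D replicate 3.

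HSPA5 itself (chromosome 9, 125234853 to 125241330) had 973, 838 and 1097 CPM in gFBXW7_gKMT2D, against 1259, 1095 and 1019 CPM in gFBXW7, and the groups overlapped. Its log2 fold change of -0.21 (SE 0.17) came with a 95% interval of -0.60 to 0.17. HSP90B1 was at -0.09 (SE 0.25), HERPUD1 at -0.08 (SE 0.12), DNAJB9, a co-chaperone that holds ERN1 inactive, at -0.13 (SE 0.12), and DERL3 at -0.11 (SE 0.15). Among the sensors, ATF6 was at 0.11 (SE 0.17), ERN1 at -0.15 (SE 0.21) and EIF2AK3 at -0.18 (SE 0.18), while SEC61A1 was at -0.12 (SE 0.19) and MZB1 at -0.03 (SE 0.27). All 10 genes with an ER stress element were below 0 (median -0.17, from -0.40 in CRELD2 to -0.08 in HERPUD1). Of the 28 genes searched without a match, 20 were below 0 (median -0.11), and of 20 other tested genes with such an element, XBP1 and SERP1 among them, 11 were (median -0.02). No test was made of these counts. The split by element was chosen after the values were seen, and genes of the same libraries are not independent replicates. The 10 genes became 8 without gFBXW7 replicate 1 or gFBXW7_gKMT2D replicate 2, and 9 without gFBXW7_gKMT2D replicate 1 or 3.

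**Figure D2:**
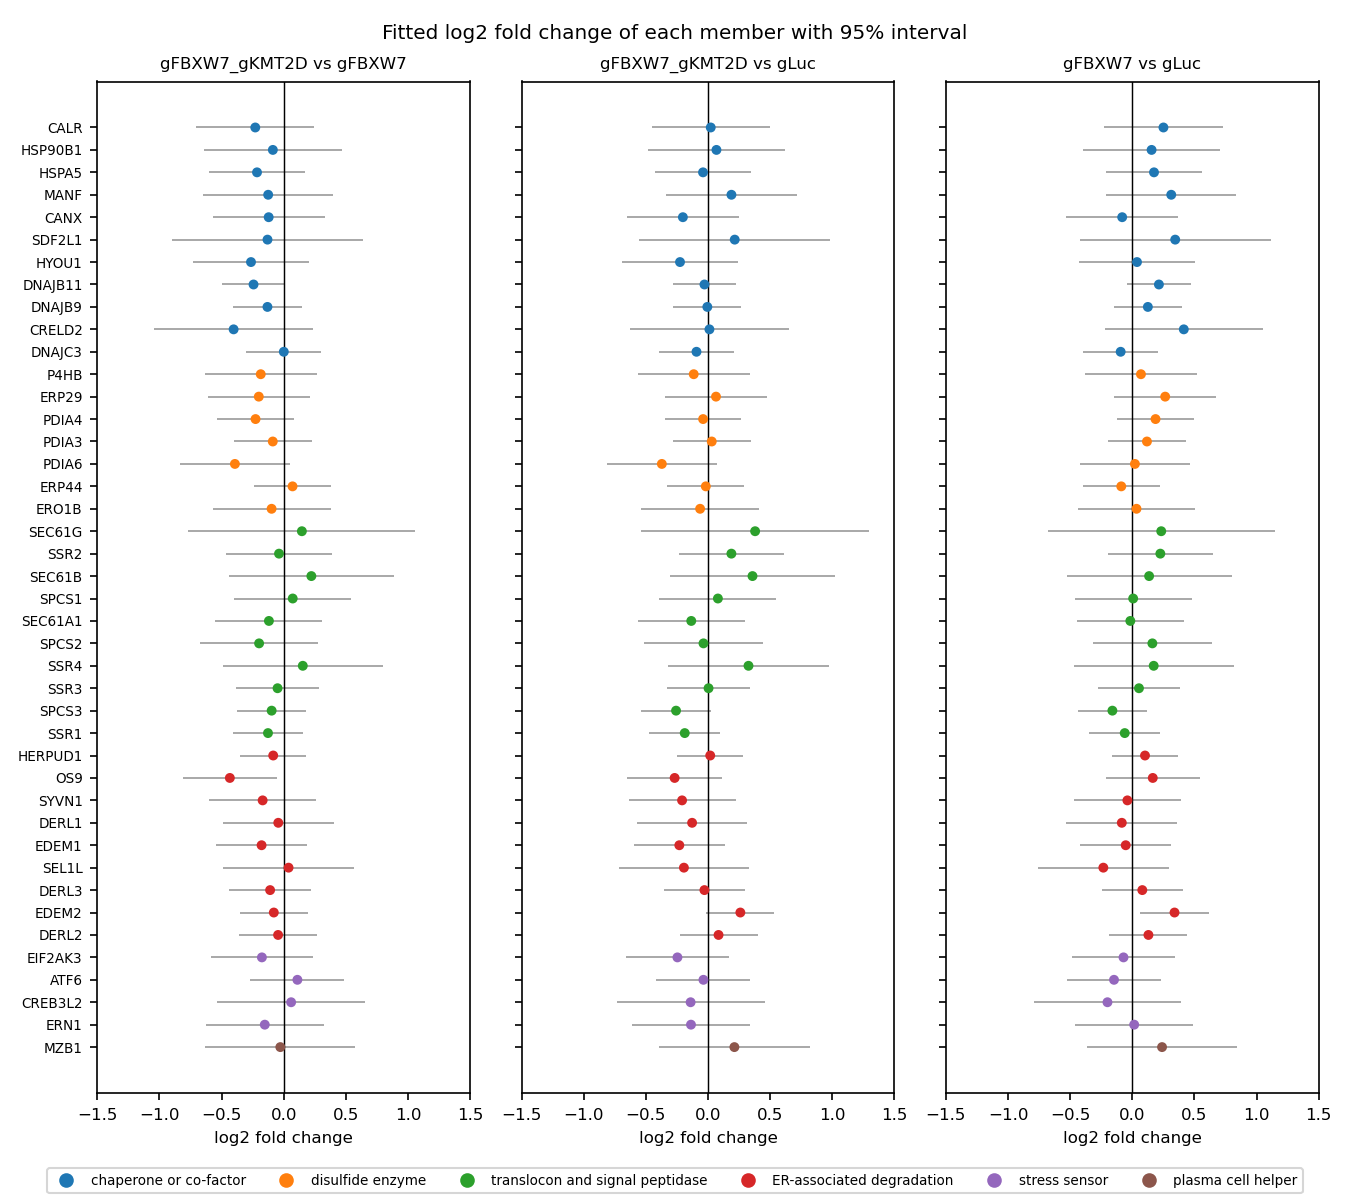
Fitted log2 fold change (dot) and 95% interval (line) of each of the 42 genes in the 3 comparisons, coloured by role. In gFBXW7_gKMT2D against gFBXW7 most dots lie left of 0, in gFBXW7 against gLuc most lie right of it, and nearly all intervals cross 0.

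The second comparison sets the cells with both guides against the luciferase control. None of the 42 genes passed the test in edgeR, DESeq2 or limma, where edgeR called 7 genes in all (0.0528%), and none of the 42 had an unadjusted p under 0.05, against 3.61% of all genes. Of the 42, 17 were above 0 and 25 below, with a median log2 fold change of -0.03, where all genes had a median of 0.00 and 50% lay below 0. EDEM2, a mannosidase-like protein that starts glycoprotein disposal (chromosome 20, 35115357 to 35147364), had 28.5, 25.4 and 29.6 CPM in gFBXW7_gKMT2D, against 25.3, 23.3 and 21.0 CPM in gLuc. Every gFBXW7_gKMT2D library was above every gLuc library, by a small margin, at a log2 fold change of 0.26 (SE 0.12, unadjusted p = 0.0604, edgeR adjusted p = 0.902). EDEM2 was the 1 gene of the 42 whose libraries were all higher, against 3.28% of all genes. Another 3 had all libraries lower, against 3.69% of all genes, namely SPCS3, PDIA6 and SSR1. SPCS3, a subunit of signal peptidase (chromosome 4, 176319964 to 176332245), had 430, 440 and 474 CPM in gFBXW7_gKMT2D, against 517, 530 and 559 CPM in gLuc. Its log2 fold change was -0.26 (SE 0.13, unadjusted p = 0.068, edgeR adjusted p = 0.902). PDIA6, with 279, 287 and 168 CPM in gFBXW7_gKMT2D against 315, 329 and 305 CPM in gLuc, was at -0.37 (SE 0.20), or -0.16 without gFBXW7_gKMT2D replicate 3. SSR1, a subunit of the TRAP complex at the channel, was at -0.19 (SE 0.13). OS9, with 148, 131 and 110 CPM in gFBXW7_gKMT2D against 185, 149 and 133 CPM in gLuc, was at -0.27 (SE 0.17), or -0.13 without gLuc replicate 1 and -0.16 without gFBXW7_gKMT2D replicate 3. EDEM1, a relative of EDEM2, was at -0.23 (SE 0.16), with values of -0.41 to -0.12 as each library was left out. Both overlapped between the groups.

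HSPA5, with 973, 838 and 1097 CPM in gFBXW7_gKMT2D against 1136, 993 and 860 CPM in gLuc, had a log2 fold change of -0.04 (SE 0.17), and the groups overlapped. HSP90B1 stood at 0.07 (SE 0.25), HERPUD1 at 0.02 (SE 0.12), DNAJB9 at -0.0052 (SE 0.12), DERL3 at -0.03 (SE 0.15) and MZB1 at 0.21 (SE 0.27). All 4 sensors were below 0, EIF2AK3 at -0.25 (SE 0.18), ERN1 at -0.14 (SE 0.21), CREB3L2 at -0.14 (SE 0.27) and ATF6 at -0.04 (SE 0.17). SEC61A1 lay at -0.13 (SE 0.19) where SEC61G lay at 0.38 (SE 0.41) and SEC61B at 0.36 (SE 0.30). Of the 10 genes with an ER stress element, 5 were above 0 and 5 below (median -0.01). This split rested on single libraries, since 10 were below 0 without gFBXW7_gKMT2D replicate 3, 9 without gLuc replicate 3 and 8 without gFBXW7_gKMT2D replicate 1, but 4 without gFBXW7_gKMT2D replicate 2 or gLuc replicate 1. With 1 surrogate variable 10 were below 0, and with limma 9.

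The last comparison, gFBXW7 against gLuc, asks what the FBXW7 guide does alone. No gene of the 13262 passed the edgeR test (0%), 209 genes (1.58%) had an unadjusted p under 0.05, EDEM2 among the 42, the DESeq2 Wald test called 1 gene and limma 0, and none of these calls was one of the 42. The fitted values leaned upward: 29 of the 42 were above 0 and 13 below, with a median log2 fold change of 0.09, where 49.3% of all genes were above 0 and 50.7% below and their median was -0.0042. By role, 9 of 11 chaperones were above 0 (median 0.17), 6 of 7 disulfide enzymes (0.07), 7 of 10 of the translocon group (0.09) and 5 of 9 degradation factors (0.08), while 3 of 4 sensors were below 0 (-0.11). EDEM2 had 30.0, 29.3 and 28.7 CPM in gFBXW7 against 25.3, 23.3 and 21.0 CPM in gLuc, without overlap, at a log2 fold change of 0.34 (SE 0.12, 95% interval 0.065 to 0.61, unadjusted p = 0.0203, edgeR adjusted p = 0.956). DNAJB11, with 152, 148 and 143 CPM in gFBXW7 against 132, 127 and 122.9 CPM in gLuc, was at 0.21 (SE 0.11, unadjusted p = 0.0918) and did not overlap either. HERPUD1, with 251, 240 and 251 CPM in gFBXW7 against 237, 234 and 220 CPM in gLuc, was at 0.10 (SE 0.12). These 3 genes had every gFBXW7 library above every gLuc library, as 4.37% of all genes did, and SPCS3 had them all below (497, 445 and 495 CPM in gFBXW7 against 517, 530 and 559 CPM in gLuc), as 4.49% of all genes did. CRELD2 was at 0.41 (SE 0.29), but at 0.72 without gLuc replicate 1, 0.23 without gFBXW7 replicate 1 and 0.20 without gLuc replicate 3. ERP29, a lumenal relative of the disulfide isomerases, was at 0.26 (SE 0.18), MANF, an ER stress-induced cofactor of HSPA5, at 0.31 (SE 0.23) and PDIA4 at 0.19 (SE 0.14), and in these 4 genes the libraries overlapped. Without gLuc replicate 3 the last 3 were at 0.13, 0.16 and 0.12, and without gLuc replicate 1 at 0.44, 0.54 and 0.27, in the order named. HSPA5 was at 0.17 (SE 0.17), HSP90B1 at 0.16 (SE 0.25), DNAJB9 at 0.13 (SE 0.12), DERL3 at 0.08 (SE 0.15) and MZB1 at 0.24 (SE 0.27). ATF6 was at -0.15 (SE 0.17), EIF2AK3 at -0.07 (SE 0.18), ERN1 at 0.02 (SE 0.21) and SEC61A1 at -0.02 (SE 0.19). Of the 10 genes with an ER stress element, 9 were above 0 (median 0.13; 7 to 9 with a library left out and 6 with limma), against 17 of 28 without a match (0.10) and 7 of 20 other genes with an element (-0.08).

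The 3 comparisons share libraries, gFBXW7_gKMT2D in the first and the second, gFBXW7 in the first and the last, and gLuc in the second and the last. The downward lean of the first and the upward lean of the last are thus partly the same gFBXW7 libraries read from both sides. Genes low in both the first and the second, such as PDIA6, SSR1 and OS9, rest on the same gFBXW7_gKMT2D libraries. The precision bounds what these values can mean. The standard errors of the 42 had a median of 0.19, from 0.11 for DNAJB11 to 0.41 for SEC61G. The 95% interval lay within a 2-fold change either way for 40, 40 and 39 of the 42 in the 3 comparisons in the order given, and within 1.5-fold for 22, 23 and 27.

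**Figure D3:**
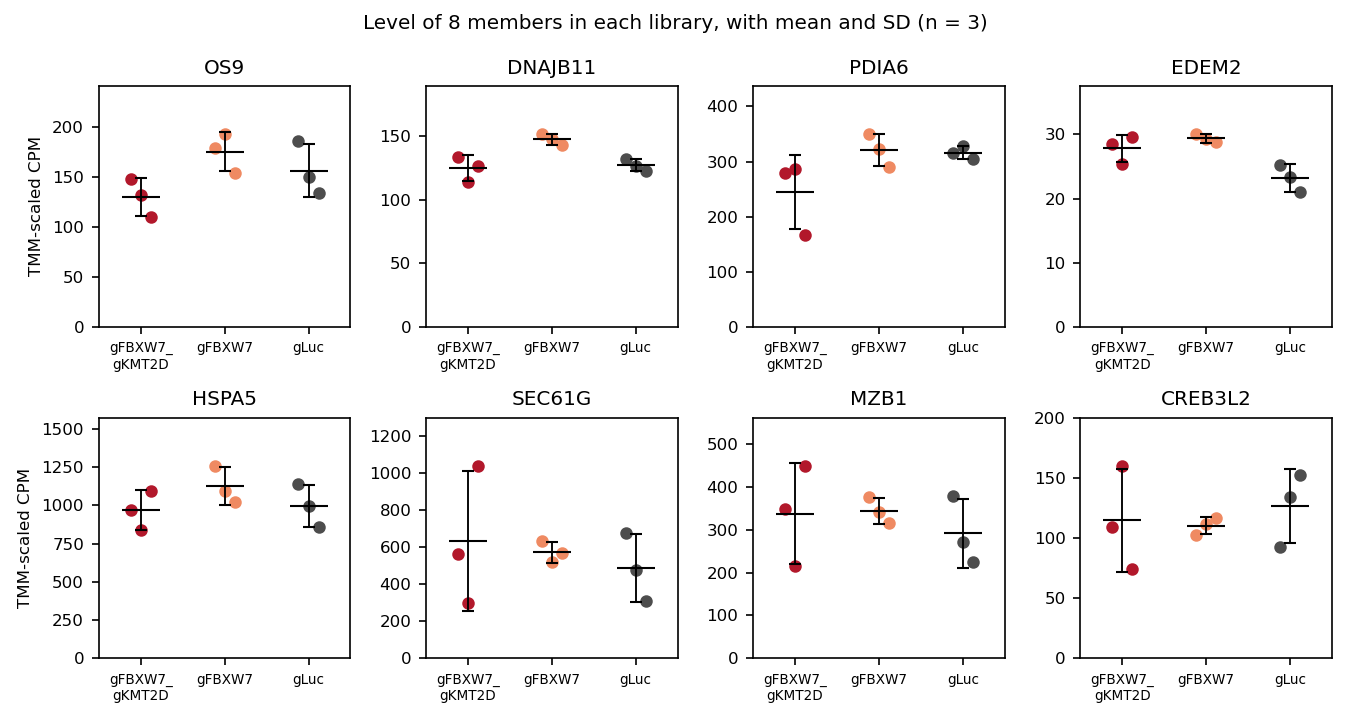
TMM-scaled CPM of 8 genes in each library (dots), with mean and SD (n = 3), the groups from left to right gFBXW7_gKMT2D, gFBXW7 and gLuc. OS9, DNAJB11 and PDIA6 lie lower in gFBXW7_gKMT2D than in gFBXW7, EDEM2 lies lowest in gLuc, and SEC61G, MZB1 and CREB3L2 spread far more within gFBXW7_gKMT2D and gLuc than between groups.

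Libraries of the same group differed widely. In 39 of the 42 genes (92.9%) the largest gap between libraries of a group exceeded the largest fold change between groups, near the 95.5% of all genes in which it did. The median range of a gene within a group was 0.66 on the log2 scale in gFBXW7_gKMT2D, 0.20 in gFBXW7 and 0.43 in gLuc. SEC61G spread most, with 565, 298 and 1042 CPM in gFBXW7_gKMT2D, 633, 520 and 568 CPM in gFBXW7, and 677, 480 and 308 CPM for gLuc, a 3.49-fold span. SEC61B spanned 2.64-fold, SDF2L1, a co-factor of HSPA5, 2.61-fold and MZB1 2.09-fold, while HERPUD1 spanned 1.18-fold and DNAJB9 1.24-fold. CREB3L2, an ER-bound transcription factor related to ATF6 in its activation, spanned 2.15-fold in the opposite order, with 109, 161 and 74.9 CPM in gFBXW7_gKMT2D, 103, 112 and 117 CPM in gFBXW7, and 92.7, 135 and 153 CPM for gLuc. Where SEC61G was high in gFBXW7_gKMT2D and gLuc, CREB3L2 was low.

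This order went with gene length. Among the 14 shortest of the 42 (466 to 2538 bases), the median distance from a gene's 9-library mean was 0.08, -0.37 and 0.35 on the log2 scale in gFBXW7_gKMT2D replicates 1, 2 and 3, 0.16, 0.11 and 0.08 in gFBXW7, and 0.20, -0.17 and -0.36 in gLuc. Among the 14 longest (4818 to 9776 bases) it was -0.10, 0.15 and -0.30 in gFBXW7_gKMT2D, 0.01, 0.0040 and 0.04 in gFBXW7, and -0.13, 0.14 and 0.19 in gLuc. DERL3, with its doubtful length, is counted among the longest. In every gFBXW7_gKMT2D and gLuc library the short and the long genes lay on opposite sides of 0, and in the gFBXW7 libraries both lay slightly above it. To describe this, the library with the highest ribosomal protein share was set against the one with the lowest in each group, a choice made after the values were seen. In gFBXW7_gKMT2D (replicate 3 minus 2) the difference correlated with gene length across the 42 genes at a Spearman rho of -0.72 (all genes -0.40), in gFBXW7 (1 minus 3) at -0.41 (all genes -0.27) and in gLuc (1 minus 3) at -0.79 (all genes -0.51). These are correlations across genes of the same libraries, and genes are not independent replicates. The ribosomal protein share can itself vary with a length trend of the libraries. The sign of these slopes, and the agreement in sign between pairs, may therefore follow in part from how the pairs were chosen. In 31 of the 42 genes the difference had the same sign in all 3 pairs, higher in 19 and lower in 12 (73.8% in all), where 59.4% of all genes had, 28.8% higher and 30.6% lower. In the gFBXW7_gKMT2D pair 52.4% of the 42 differed by over 1.5-fold, 11 each way, against 47.7% of all genes, in the gFBXW7 pair 2.38% against 7.75%, and in the gLuc pair 21.4% against 28.5%.

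**Figure D4:**
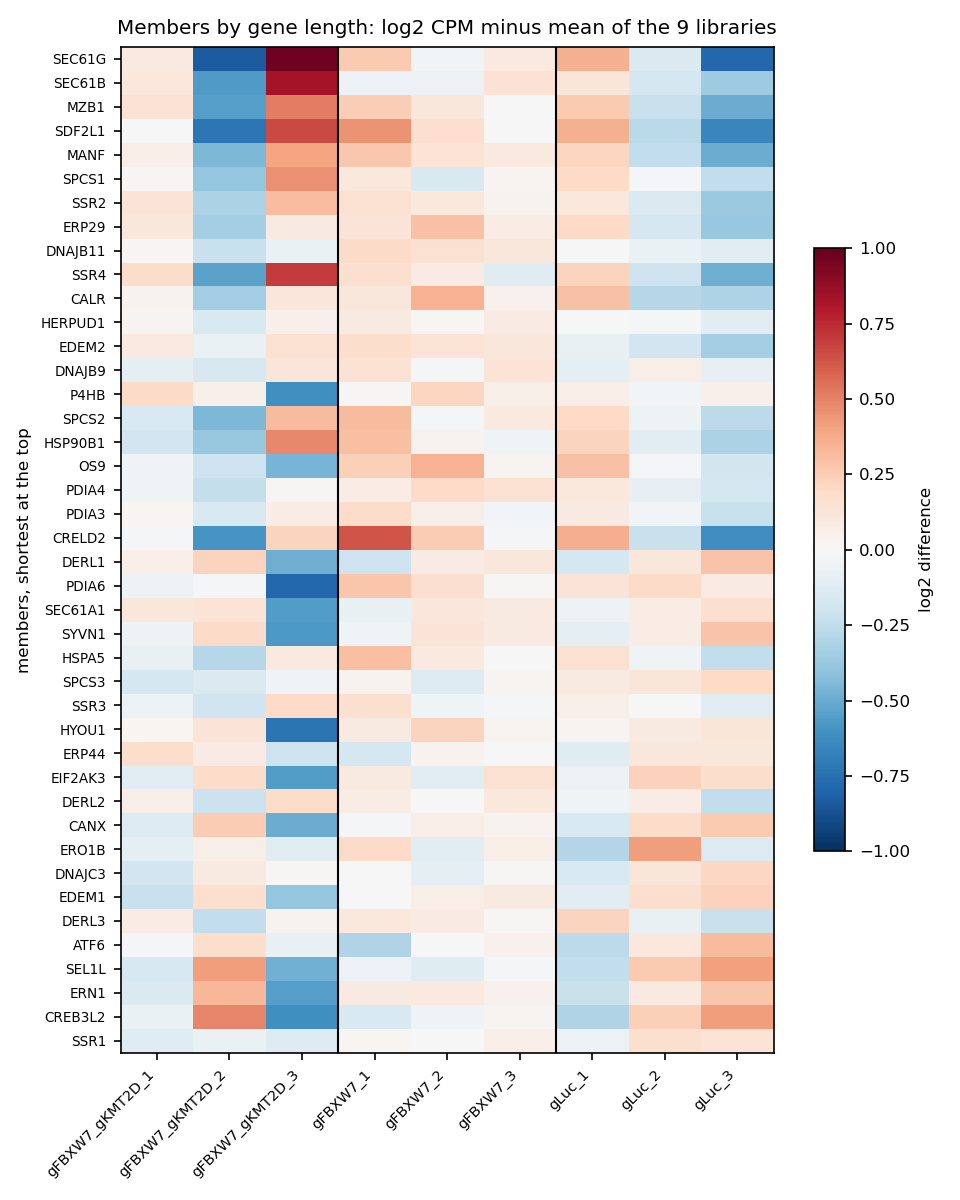
Log2 CPM of each of the 42 genes minus its mean over the 9 libraries (colour, red above and blue below), with genes from the shortest at the top to the longest at the bottom and libraries in columns by group. The top rows are red in gFBXW7_gKMT2D replicate 3 and blue in gFBXW7_gKMT2D replicate 2 and gLuc replicate 3, and the bottom rows show the reverse.

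**Figure D5:**
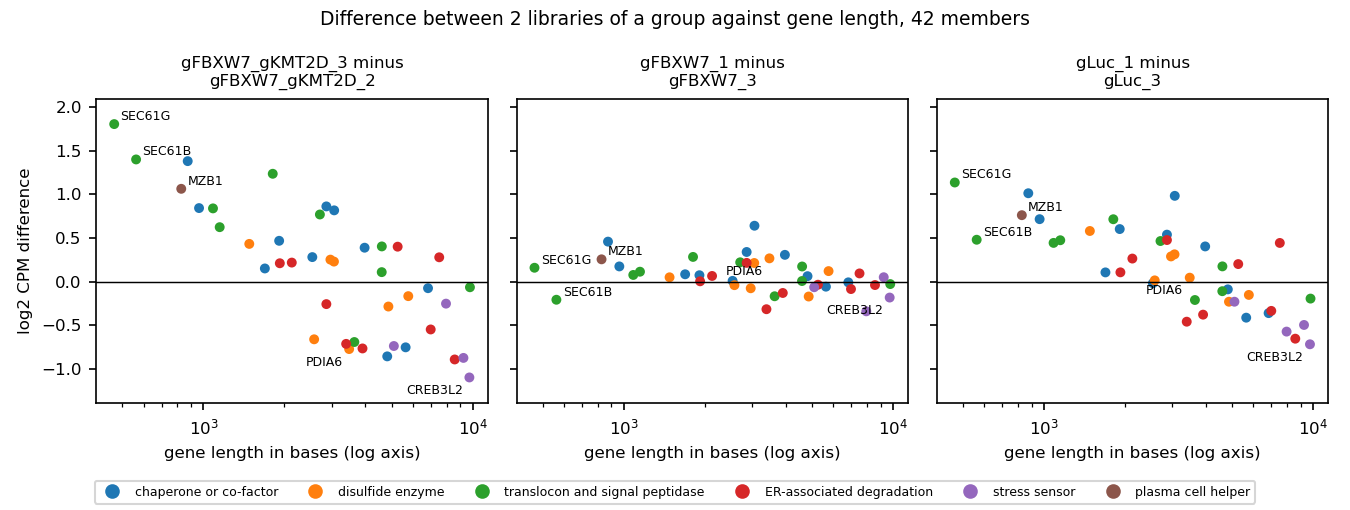
Difference in log2 CPM between the libraries with the highest and the lowest ribosomal protein share of each group (vertical) against gene length in bases (horizontal, log axis), 1 dot per gene, coloured by role. The dots slope downward in the gFBXW7_gKMT2D pair (rho -0.72) and the gLuc pair (rho -0.79) and less in the gFBXW7 pair (rho -0.41).

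The same slope appeared in the group comparisons with gLuc. Across the 42 genes the log2 fold change correlated with gene length at a Spearman rho of -0.70 in gFBXW7_gKMT2D against gLuc (all genes -0.30) and -0.75 in gFBXW7 against gLuc (all genes -0.42), but at -0.03 in gFBXW7_gKMT2D against gFBXW7 (all genes 0.08). The short SEC61G, SEC61B and SSR4 stood above 0 and the long SEL1L and CREB3L2 below 0 in both comparisons with gLuc. The 4 sensors were all among the longer genes, from 5099 bases in EIF2AK3 to 9730 bases in CREB3L2. For them role and length cannot be told apart in the comparisons with gLuc. With the length trend of each library removed the rho values for the 42 were -0.12, -0.11 and -0.0053 in the same order. The counts above and below 0 were then 14 and 28 in gFBXW7_gKMT2D against gLuc, 28 and 14 in gFBXW7 against gLuc, and 5 and 37 in gFBXW7_gKMT2D against gFBXW7. The part of length, ribosomal protein share or mitochondrial messages in the fold changes was not tested further.

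A fit with 1 surrogate variable, a term estimated from the data and meant for variation outside the groups, called none of the 42 either. The term also moved the group differences. With it the rho of fold change with length across the 42 was 0.18 in gFBXW7_gKMT2D against gLuc, where it was -0.70 without it. Its fold changes and p-values are thus not simply those of the groups with other variation removed. The fit called 124 genes in all in gFBXW7_gKMT2D against gFBXW7, 55 in gFBXW7_gKMT2D against gLuc and 0 in gFBXW7 against gLuc. In the first of these 12 of the 42 had an unadjusted p under 0.05, all 12 below 0, where 16.7% of all genes had one. They were CRELD2 at -0.45 (SE 0.13), PDIA6 at -0.41 (SE 0.12), OS9 at -0.43 (SE 0.13), HYOU1 at -0.29 (SE 0.11), SDF2L1 at -0.26 (SE 0.09), SPCS2, DNAJB11, PDIA4 and HSPA5 at -0.25 to -0.23, and SYVN1, EDEM1 and MANF at -0.19 to -0.18. Their adjusted p-values in edgeR with the surrogate variable ran from 0.128 to 0.288. In gFBXW7_gKMT2D against gLuc 4 of the 42 had one (SPCS3, SPCS2 and PDIA6 below 0, EDEM2 above), against 9.42% of all genes, and in gFBXW7 against gLuc 3 did (EDEM2, ERN1 and DNAJB11, all above 0), against 4.35%. Without the surrogate variable, gFBXW7_gKMT2D against gFBXW7 had 1 of the 42 and 4.22% of all genes at an unadjusted p under 0.05. How the 16.7% of all genes with the surrogate variable split by direction was not counted.

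Around the 42 genes, 127 further genes of the same pathways were listed, of which 112 were tested, and none passed the test in any comparison. An unadjusted p under 0.05 in edgeR was found for 3 of the 112 in gFBXW7_gKMT2D against gFBXW7, where 4.22% of all genes had one. There were 2 in gFBXW7_gKMT2D against gLuc (3.61% of all genes) and 2 in gFBXW7 against gLuc (1.58% of all genes). In gFBXW7_gKMT2D against gFBXW7, 42 of the 112 were above 0 and 70 below (median -0.05), in gFBXW7_gKMT2D against gLuc 54 and 58 (median -0.0047), and in gFBXW7 against gLuc 64 and 48 (median 0.02). The 15 tested genes of the transcriptional and eIF2 arms of the stress response had 3 above and 12 below 0 in the first (median -0.11), 7 and 8 in the second (-0.08), and 10 and 5 in gFBXW7 against gLuc (0.28). XBP1, the transcription factor that ERN1 activates by splicing, had 861, 707 and 1058 CPM in gFBXW7_gKMT2D, 1085, 906 and 949 CPM in gFBXW7, and 1129, 947 and 866 CPM for gLuc. For gFBXW7_gKMT2D it stood at -0.16 (SE 0.19) on the log2 scale against gFBXW7 and also against gLuc, and gFBXW7 stood at -0.00093 (SE 0.19) against gLuc. All 3 groups overlapped, and gene counts do not tell its spliced form from the unspliced. ATF4, translated when eIF2 is phosphorylated, had 1064, 813 and 1094 CPM in gFBXW7_gKMT2D, 1122, 1102 and 1007 CPM in gFBXW7, and 1025, 878 and 712 CPM for gLuc, with a log2 fold change of -0.12 (SE 0.18) in gFBXW7_gKMT2D against gFBXW7, 0.18 (SE 0.18) in gFBXW7_gKMT2D against gLuc and 0.30 (SE 0.18) in gFBXW7 against gLuc. DDIT3 (CHOP), a target of ATF4, had 19.3, 14.4 and 17.4 CPM in gFBXW7_gKMT2D, 18.4, 18.9 and 16.0 CPM in gFBXW7, and 14.2, 13.2 and 9.11 CPM for gLuc. Every library with an FBXW7 guide was above every gLuc library, at 0.48 (SE 0.19, unadjusted p = 0.0292) for gFBXW7_gKMT2D and 0.55 (SE 0.19, unadjusted p = 0.0161) for gFBXW7, with edgeR adjusted p-values of 0.902 and 0.956, while gFBXW7_gKMT2D against gFBXW7 was at -0.07 (SE 0.19). CHAC1, another gene downstream of ATF4, had 29.3, 27.9 and 23.3 CPM in gFBXW7_gKMT2D, 27.2, 28.4 and 26.3 CPM in gFBXW7, and 20.2, 22.4 and 17.8 CPM for gLuc, likewise without overlap with gLuc. Its log2 fold changes were 0.42 (SE 0.14, unadjusted p = 0.0135) and 0.44 (SE 0.14, unadjusted p = 0.0101). Since both comparisons use the same gLuc libraries, they are not independent. All gFBXW7_gKMT2D libraries lay above all gLuc libraries in 3.28% of all genes, and all gFBXW7 libraries did in 4.37%. The share of all genes in which both held at once was not counted. CHAC1 is named because it had the lowest p of its list in both comparisons with gLuc. PPP1R15A (GADD34), which reverses eIF2 phosphorylation, had 33.2, 29.9 and 24.3 CPM in gFBXW7_gKMT2D, against 45.4, 48.6 and 38.8 CPM in gFBXW7, and 40.5, 37.1 and 27.6 CPM for gLuc. It lay lower in every gFBXW7_gKMT2D library than in any gFBXW7 library, at -0.60 (SE 0.18, unadjusted p = 0.0079, edgeR adjusted p = 0.94). CREB3, a transcription factor of the same membrane-bound family as CREB3L2, was at -0.41 (SE 0.18, unadjusted p = 0.0492) in that comparison and overlapped between the groups.

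The other lists held fewer such genes. Of the targeting and translocation list, SRPRB, a subunit of the receptor of the signal recognition particle, was at -0.33 (SE 0.14, unadjusted p = 0.0404) in gFBXW7_gKMT2D against gFBXW7, with 248, 209 and 251 CPM in gFBXW7_gKMT2D and 311, 299 and 279 CPM in gFBXW7. PPIB, an ER prolyl isomerase, was at -0.37 (SE 0.17) in the same comparison and overlapped between the groups. The lists of N-glycosylation, further ER-associated degradation and ER export had no gene with an unadjusted p under 0.05 in any comparison. Of the immunoglobulin list 2 of 13 genes were in the table, and JCHAIN, which joins antibody multimers, had 9708, 7766 and 13569 CPM in gFBXW7_gKMT2D, 11147, 10313 and 10231 CPM in gFBXW7, and 11442, 10616 and 9273 CPM for gLuc, overlapping in all groups. The antibody chains themselves were not analysed here, so the load that the 42 genes handle has no direct measure in these values.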

How the data were processed

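Libraries were strand-specific (dUTP) and made from column-purified poly(A) RNA, per the labels' protocols. The tools named are DESeq2, featureCounts, STAR and Trimmomatic and the build is GRCh38, per the submitters' processing notes, which give no versions. The deposited table holds a read count and an RPKM per gene and library, per the file headers. Each deposited count is a whole number with no scaling. Recomputing RPKM from the count, the length and the total gave the deposited RPKM to within a relative difference of 8.5e-07. A row with no gene name equalled the total of the others and was left out. Of 38478 gene rows, 12580 held no read.

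Counts were fitted in R 4.3.3 with edgeR 4.0.16 (filterByExpr by group, 13262 genes; TMM; quasi-likelihood fit of all 9 libraries with group as the only term; glmQLFTest; Benjamini-Hochberg over all tested genes; threshold 0.05). The standard error is the absolute fold change over the root of F, and 95% intervals come from the t distribution of the same fit. CPM are TMM-scaled, and log2 CPM used for library differences within pairs has a prior count of 2. The procedure was tested on simulated data that held no trend with gene length between libraries. That run therefore says nothing on how such a trend bears on the fit. Pairs of libraries in a group had a chi-squared over its degrees of freedom of 6.66 to 254 across genes, so none repeats another.

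The 42 genes, the pathway lists, the markers and the tests were chosen with earlier results of these data known. A log2 fold change and SE are given for the 6 with the lowest p of the 42 in each comparison, and CPM and p-values for some of these. The fit with 1 surrogate variable names further genes, those with an unadjusted p under 0.05. HSPA5, HSP90B1, HERPUD1, DNAJB9, DERL3, MZB1, SEC61A1, ATF6, ERN1, EIF2AK3, XBP1, ATF4 and DDIT3 are always given, and in each comparison at most the 2 genes of lowest p of each further list. Replicate numbers were not treated as pairs, since same-numbered libraries correlated at -0.586 to 0.454 in their deviations from the group means. Alternatives were DESeq2 size factors, upper quartile scaling, no filter, a mean of at least 50 reads, the DESeq2 1.42.0 Wald test, limma 3.58.1 on log2(RPKM + 1), a fit of only the 6 libraries compared, a replicate block, 1 surrogate variable (sva 3.50.0), removal of the gene length trend of each library (lowess, span 0.3), and each library left out. The split by ER stress element and the library pairs by ribosomal protein share were chosen after seeing the data. Coordinates are 1-based on GRCh38 (GENCODE 29), and promoter sequences are RefSeq's on GRCh38.p14. Python 3.11.15 with matplotlib 3.10.9, pandas 2.3.3 and scipy 1.17.1 wrote the tables and figures.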

Additional observations from a re-analysis of the deposited data

How the results depend on the processing

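No alternative called any of the 42 genes, and their lowest adjusted p under any setting was 0.128 in gFBXW7_gKMT2D against gFBXW7, 0.264 in gFBXW7_gKMT2D against gLuc and 0.575 in gFBXW7 against gLuc. The median log2 fold change of the 42 ran from -0.137 to -0.0799 in the first, -0.0442 to 0.0412 in the second and 0.0308 to 0.124 in the third with each library left out. In the second it was above 0 without gFBXW7_gKMT2D replicate 2 (0.04) or gLuc replicate 1 (0.02), and the number below 0 was 19 without gFBXW7_gKMT2D replicate 2 and 32 without gFBXW7_gKMT2D replicate 3. Below 0 in the first were 29 to 37 under all alternatives, and above 0 in the third 24 to 29.

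The number of genes called in all moved more. In gFBXW7_gKMT2D against gFBXW7 (8) it was 5 with upper quartile scaling, 33 with no filter, 32 with the DESeq2 Wald test, 3 with limma, 0 in the 6 libraries alone, 2 with the replicate block, 124 with 1 surrogate variable and 5 with the length trend removed, and 0 to 7 with a library left out. In gFBXW7_gKMT2D against gLuc (7) it was 21 with no filter, 24 with DESeq2, 4 with limma, 2 in the 6 libraries alone, 2 with the replicate block, 55 with 1 surrogate variable, and 2 to 8 with a library left out. In gFBXW7 against gLuc (0) it was 1 with DESeq2 and 0 with any library left out. The causes were not tested. The replicate block changed no call among the 42.

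Of 912 single-gene values under alternatives, 859 kept their sign and 53 did not, none of them past the threshold in any setting. The 912 include fits that leave out a library of the group not compared. Such fits can move a value only little, so the share that kept its sign is no measure of firmness. In gFBXW7_gKMT2D against gLuc, DNAJB9 was at 0.00371 with DESeq2 size factors, 0.0082 with upper quartile scaling, 0.0066 at a mean of 50 reads, 0.00239 with the Wald test and 0.0030 in the 6 libraries alone. There HSP90B1 was at -0.035 and HERPUD1 at -0.055 with limma. With 1 surrogate variable HSP90B1 was at -0.18, HERPUD1 at -0.029, MZB1 at -0.077, ATF6 at 0.086 and ERN1 at 0.033, and with the length trend removed HSPA5 was at 0.00220, HERPUD1 at -0.066, DERL3 at 0.054, MZB1 at -0.032 and ATF6 at 0.064. In gFBXW7 against gLuc, ERN1 was at -0.0111 with limma, HSP90B1 at -0.030, SEC61A1 at 0.12 and EIF2AK3 at 0.071 with 1 surrogate variable, and HERPUD1 at -0.019 with the length trend removed. With a library left out, values crossed 0 in gFBXW7_gKMT2D against gFBXW7 for HSP90B1 (-0.38 to 0.077), MZB1 (-0.28 to 0.21), SEC61A1 (-0.23 to 0.081), ERN1 (-0.41 to 0.041) and EIF2AK3 (-0.36 to 0.0045). In gFBXW7_gKMT2D against gLuc they did for HSPA5 (-0.14 to 0.065), HSP90B1 (-0.23 to 0.23), HERPUD1 (-0.019 to 0.079), DNAJB9 (-0.090 to 0.050), DERL3 (-0.11 to 0.10), MZB1 (-0.047 to 0.45), SEC61A1 (-0.25 to 0.061), ATF6 (-0.18 to 0.11) and ERN1 (-0.40 to 0.052). In gFBXW7 against gLuc they did for DERL3 (-0.021 to 0.21), SEC61A1 (-0.070 to 0.043) and ERN1 (-0.11 to 0.13).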
